A study of Mus musculus with 14 samples.

Results

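Precursors of classical dendritic cells (pre-cDC) were compared with common dendritic cell progenitors (CDP), the population that precedes them in the marrow. Both were taken from bone marrow of C57BL/6 mice that are wild-type, and were purified with magnetic beads and then by flow cytometry. The comparison was made up of 4 of the 14 arrays of the series, 2 for each group, chosen by their group labels. By their labels, the pre-cDC lacked lineage markers and surface MHC class II and carried CD11c, CD135 and CD172a. The CDP lacked lineage markers, IL-7R and Sca-1, had an intermediate level of CD117, and carried CD115 and CD135. The labels give no age or sex, do not name the antibodies of the lineage mix, and do not say whether the cells of an array were pooled from several mice or whether the 2 arrays of a group came from separate animals. If they did not, the spread between the 2 arrays is technical. The p-values below rest on 1 estimate of the spread within 6 groups of 12 arrays, these 4 included, and so measure only the spread between such arrays. The remaining arrays of the series hold granulocyte-monocyte progenitors (GMP, wild-type or labelled IRF8KO), CD8+ and CD4+ splenic classical dendritic cells (cDC) and neutrophils (Neu), and apart from the CD4+ cDC, which were not used, they enter the fit and the estimate of its spread, and the wild-type ones also serve to place a level.

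Dendritic cells take up antigen and present it to T cells. Classical dendritic cells fall into cDC1, which depend on the transcription factors IRF8 and BATF3 and are specialised in presenting antigen on class I molecules, and cDC2, which depend more on IRF4. Plasmacytoid dendritic cells, which secrete type I interferon after sensing nucleic acids through TLR7 and TLR9, are governed by the E protein TCF4, which Id proteins such as ID2 oppose. A CDP can give rise to all of these cells, whereas a pre-cDC is described as restricted to classical dendritic cells, which it forms after leaving the marrow through the blood.

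Levels are log2 of the processed spot signal minus the log2 of the array's 75th percentile, so a level of 0 equals that percentile and each unit is a factor of 2. The 75th percentile itself was 182 and 164 on the pre-cDC arrays, against 88.8 and 89.2 on the CDP arrays, and 42.0% and 40.0% of probes were well above background in pre-cDC, against 39.4% and 40.1% in CDP. The 2 arrays of a group correlated across the 11465 genes tested at r = 0.994 in pre-cDC and 0.996 in CDP, and the median SD of a gene was 0.0757 in pre-cDC and 0.0543 in CDP. The 2 pre-cDC arrays lay on a slide of their own, as did the 2 CDP arrays, so slide and cell type cannot be told apart in any value below. The number of arrays limits the precision.

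Most genes tested differed. A gene was tested where the 2 arrays of pre-cDC, or the 2 of CDP, both read well above background, which left 11465 genes, and 9471 (82.6%) differed at limma's Benjamini-Hochberg adjusted p under 0.05. Of these, 2827 were higher in pre-cDC (24.7% of the genes tested) and 6644 were lower (58%). Changes of at least 2-fold were fewer, with 1485 genes higher (13%) and 3186 lower (27.8%). This split depended on how the arrays were scaled. The median change of all genes tested was -0.49 on the log2 scale, and it was -0.31 with normexp background correction, -0.23 with quantile normalization, -1.01 after scaling to array medians, 0.01 after scaling to the probes detected on all arrays, and -0.21 in the authors' deposited table. The share of calls that were higher in pre-cDC was 29.8% in the main setting, and across those 5 alternatives in the same order it was 28.8%, 38.3%, 16.3%, 51.3% and 39.5%. The shift also ran with brightness: with the genes split into 4 equal groups by mean level, from the dimmest to the brightest, the median change was 0.06, -0.36, -0.64 and -0.75. For these reasons a gene is said below to have risen or fallen only where it passed the test in the same direction under all 6 scalings, unless stated otherwise. This held for 5387 genes (47% of those tested), 1235 higher in pre-cDC (10.8%) and 4152 lower (36.2%). Where a list below has 2 sets of counts, the first is from the main setting alone, also where it is worded as rose or fell. Such counts are to be read beside the shares among all genes, 24.7% higher and 58% lower. Under all 6 scalings these shares are 10.8% and 36.2%.

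**Figure D1:**
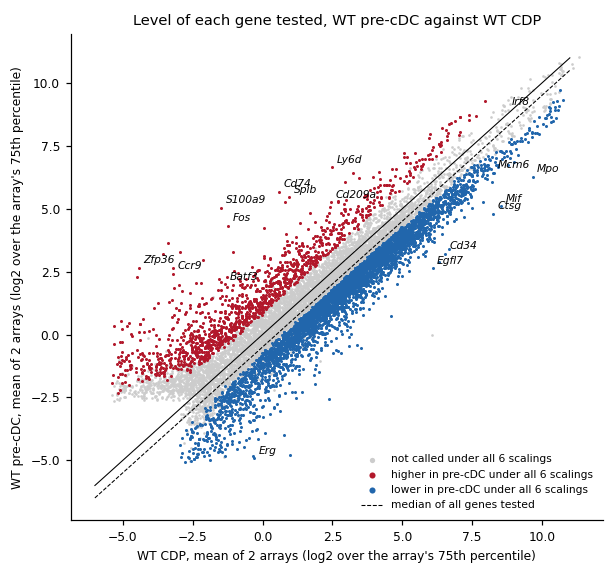
Mean level of each gene tested in WT CDP (x axis) and WT pre-cDC (y axis), 2 arrays each, as log2 over the array's 75th percentile. Red and blue points passed the test under all 6 scalings (1235 higher and 4152 lower in pre-cDC), the solid line marks equal levels, and the dashed line marks the median change of -0.49, below which most bright genes lie.

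The genes behind the gates were read first, as descriptions without a test. Itgax, which encodes CD11c, had 5.92 and 5.94 in pre-cDC, against 4.20 and 4.24 in CDP. Kit, which encodes CD117, read 0.87 and 0.75 in pre-cDC, against 2.03 and 2.04 in CDP. For Csf1r, the gene of CD115, the brightest probe gave 6.53 and 6.59 in pre-cDC, against 8.02 and 8.07 in CDP, but its 3 probes did not move alike (changes of -1.48 to 1.66, mean of probes 0.10). Itgax was thus higher in the cells gated on its product, and Kit lower in the cells not gated on its own. Flt3, the gene of CD135, which both gates require, read 5.58 and 5.47 in pre-cDC, against 5.31 and 5.35 in CDP. Against the gate, Sirpa, which encodes CD172a, was slightly lower in the cells selected for it, at 3.59 and 3.52 in pre-cDC, against 4.23 and 4.22 in CDP, and the class II genes H2-Aa, H2-Ab1 and H2-Eb1 were far higher in the cells sorted as negative for surface class II. H2-Aa read 2.96 and 3.0 in pre-cDC, against -2.05 and -2.20 in CDP, and H2-Ab1 read 6.07 and 6.07 in pre-cDC, against 2.90 and 3.0 in CDP. Il7r, whose product the CDP gate excludes, read 1.06 and 0.91 in pre-cDC, against -3.02 and -2.95 in CDP. Ly6a, the gene of Sca-1, which that gate also excludes, read 2.17 and 2.12 in pre-cDC, against 0.97 and 0.95 in CDP. Among defining markers of classical dendritic cells, Zbtb46, Batf3, Clec9a and Cd209a were well above background on all 4 arrays, whereas Xcr1, the chemokine receptor of mature cDC1, was not above background on any of them and stood at 3.23 in CD8+ cDC.

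Transcription factors of dendritic cells moved in both directions, with Batf3, Zbtb46, Spib and Irf7 up and Nfil3 and Myb down. Of 36 factor genes on the list, 33 were tested, and 16 were higher and 12 lower in the main setting (all genes: 24.7% and 58%). Under all 6 scalings 9 rose and 7 fell (all genes: 10.8% and 36.2%). The median was 0.16, which became negative when arrays were scaled to their medians. Batf3, required for cDC1, read 1.98 and 2.03 in pre-cDC, against -1.34 and -1.36 in CDP, a change of 3.35 ± 0.15 (SE, n = 2 arrays per group throughout) with limma's adjusted p = 1.05e-06. Zbtb46, a factor of classical dendritic cells and their committed precursors, read 0.24 and 0.02 in pre-cDC, against -2.17 and -2.46 in CDP (change 2.44 ± 0.21). Both pre-cDC arrays lay above both CDP arrays for these genes. Mycl, the MYC family member used by dendritic cells, changed by 1.97 ± 0.23, while Myc itself changed by -1.99 ± 0.14. The NF-kappa B subunit gene Relb (change 1.49 ± 0.13), Spi1, which encodes PU.1 (change 1.27 ± 0.08), and Irf5 (change 1.26 ± 0.10) also rose.

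Irf8, the factor at the centre of the series, stood at 8.92 and 8.93 in pre-cDC, against 8.77 and 8.78 in CDP, a difference of 0.16 ± 0.08 that did not pass the test (adjusted p = 0.102). Scaled to array medians it was called lower in pre-cDC (-0.36, adjusted p = 0.0342), but it was called higher under the other 4 scalings, by 0.39 with normexp (adjusted p = 0.00064), 1.05 with quantile normalization (adjusted p = 4.31e-06), 0.67 with detected probes (adjusted p = 0.000121) and 0.97 in the authors' deposited table (adjusted p = 4.78e-06). Its level in GMP averaged 4.65 and in CD8+ cDC 8.46, and its CDP level was above that of CD8+ cDC. Irf4 was higher, at 1.52 and 1.47 in pre-cDC, against -1.89 and -1.68 in CDP, but its error was large (change 3.28 ± 1.18) and it did not pass under all 6 scalings or with any 1 array left out (adjusted p from 0.0858 to 0.103). The difference in Id2, the Id protein of classical dendritic cells, was small (0.53 ± 0.12), also did not pass under every scaling, and left pre-cDC at 1.76 and 1.72, far below the mean of 6.59 in CD8+ cDC. Zfp366, which encodes DC-SCRIPT, was not well above background on either CDP array and at least 1.48-fold higher in pre-cDC, but it changed by -0.01 with normexp and did not pass there.

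Among the factors that fell, Nfil3, a factor that acts early in the cDC1 pathway, read 0.24 and 0.16 in pre-cDC, against 3.0 and 3.07 in CDP (change -2.84 ± 0.08, adjusted p = 4.9e-07). Myb, which sustains progenitors, read 3.53 and 3.63 in pre-cDC, against 5.53 and 5.59 in CDP (change -1.98 ± 0.08). Zeb2, a repressor that favours plasmacytoid cells and cDC2, changed by -1.05 ± 0.09, and Irf1 changed by -0.78 ± 0.05; with the mean of their probes in place of the brightest, neither passed (adjusted p = 0.0983 and 0.575). Runx3 and Ikzf1 also fell by their brightest probes (changes -1.73 ± 0.06 and -0.97 ± 0.07), but other probes of these genes moved the opposite way, up to 0.49 and 1.07, and the mean of the Ikzf1 probes changed by 0.05 and did not pass. Of the 33 factor genes tested, 5 did not pass the test in the main setting, Irf8 among them.

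**Figure D2:**
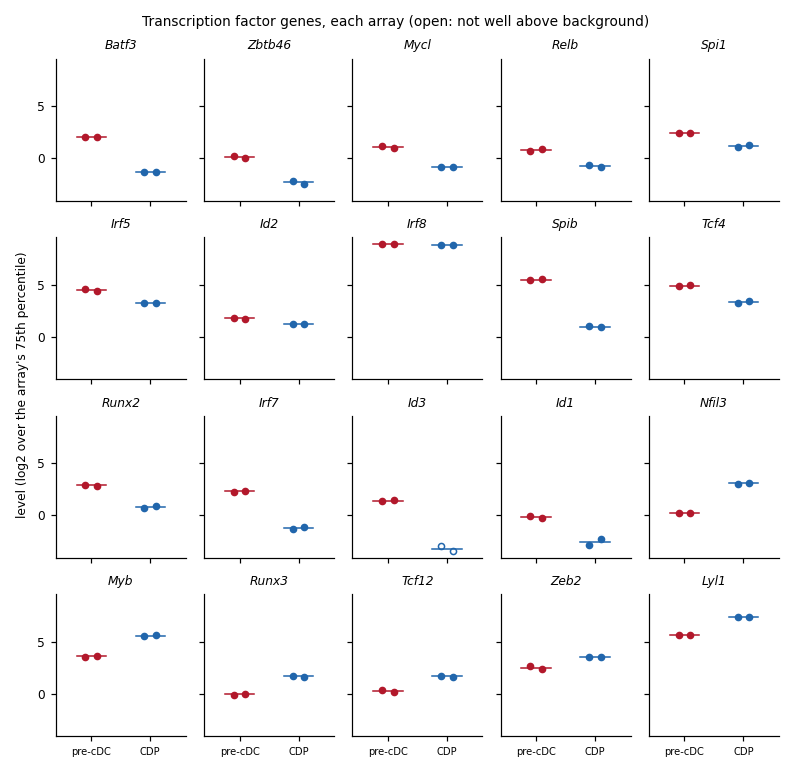
Level of 20 transcription factor and Id genes on each array of WT pre-cDC (left, red) and WT CDP (right, blue), as log2 over the array's 75th percentile, on 1 common scale. Points are arrays, bars are means of 2 arrays, and open points are not well above background; Spib, Id3, Irf7 and Batf3 show wide gaps, Irf8 reads from 8.77 to 8.93 on all 4 arrays, and Nfil3 and Myb lie lower in pre-cDC.

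Most plasmacytoid genes on the list were higher in the cells gated as precursors of classical dendritic cells. Of 24 genes on the plasmacytoid list, 22 were tested, 17 rose and 2 fell, and 15 rose and 1 fell under all 6 scalings. The median change was 1.55, between 1.03 and 2.06 over the scalings, against -0.49 for all genes tested. Spib, a factor that promotes the plasmacytoid fate, read 5.43 and 5.49 in pre-cDC, against 1.0 and 0.92 in CDP, a 22.6-fold difference (change 4.50 ± 0.28, adjusted p = 3.61e-06). It averaged 0.91 in CD8+ cDC, so that its pre-cDC level was the highest of the wild-type dendritic populations on these arrays. Ly6d, a surface protein of lymphoid and plasmacytoid progenitors, read 6.66 and 6.65 in pre-cDC, against 2.49 and 2.49 in CDP (change 4.17 ± 0.27), and it was lower again in CD8+ cDC, at -1.26. Ccr9, a homing receptor of plasmacytoid cells, read 2.42 and 2.42 in pre-cDC and was not well above background in CDP. It was thus at least 47.4-fold higher (adjusted p = 7.51e-07). In CD8+ cDC it averaged 2.60, so a high level was not particular to pre-cDC. Klk1, which encodes a kallikrein found in plasmacytoid cells, was likewise at least 7.25-fold higher.

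The nucleic acid sensing arm of that list moved in the same direction. Irf7, the master factor of type I interferon induction, read 2.25 and 2.31 in pre-cDC, against -1.39 and -1.12 in CDP (change 3.54 ± 0.16, adjusted p = 9.89e-07). Tlr7, the receptor for single-stranded RNA, read 2.99 and 3.06 in pre-cDC, against -0.01 and 0.09 in CDP (change 2.99 ± 0.11), and Tlr9, the receptor for unmethylated DNA, changed by 1.5 ± 0.09. Tcf4 itself rose less, to 4.85 and 4.93 in pre-cDC, against 3.27 and 3.39 in CDP (change 1.56 ± 0.09), and Runx2, which acts in plasmacytoid cell exit from the marrow, changed by 2.07 ± 0.10. Cox6a2, a subunit of cytochrome oxidase used as a plasmacytoid marker, changed by 1.62 ± 0.06 and fell away in CD8+ cDC (mean -2.62). The probes for Siglech and Pacsin1 also rose (changes 0.93 ± 0.12 and 1.74 ± 0.12), but they read 8.45 and 6.13 in Neu, above their pre-cDC means of 7.95 and 5.50. In CD8+ cDC they averaged 7.68 and 5.57. Cd79b, a B cell receptor chain also found in plasmacytoid cells, fell (change -1.06 ± 0.08). The other 3 genes tested did not pass the test. In RNA from many cells, a larger share of cells with plasmacytoid transcripts and more of these transcripts per cell cannot be told apart, and this holds for every gene group below.

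The balance of E proteins and their inhibitors did not move as a block. Of 11 genes tested on that list, 6 rose and 4 fell, and 3 rose and 4 fell under all 6 scalings, with a median of 0.46 that turned negative with array medians. Besides Tcf4, the rises were in Id3 and Id1, both inhibitors of E proteins. Id3 read 1.35 and 1.43 in pre-cDC and was not well above background in CDP, at least 23.5-fold higher (adjusted p = 2.63e-06), and Id1 read -0.05 and -0.24 in pre-cDC, against -2.91 and -2.27 in CDP (change 2.44 ± 0.18). The E protein gene Tcf12 fell by its brightest probe (change -1.42 ± 0.10, another probe 0.54), as did Lyl1, which encodes a partner of E proteins in progenitors (change -1.69 ± 0.06), and the corepressor gene Cbfa2t2 (change -0.72 ± 0.08).

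**Figure D3:**
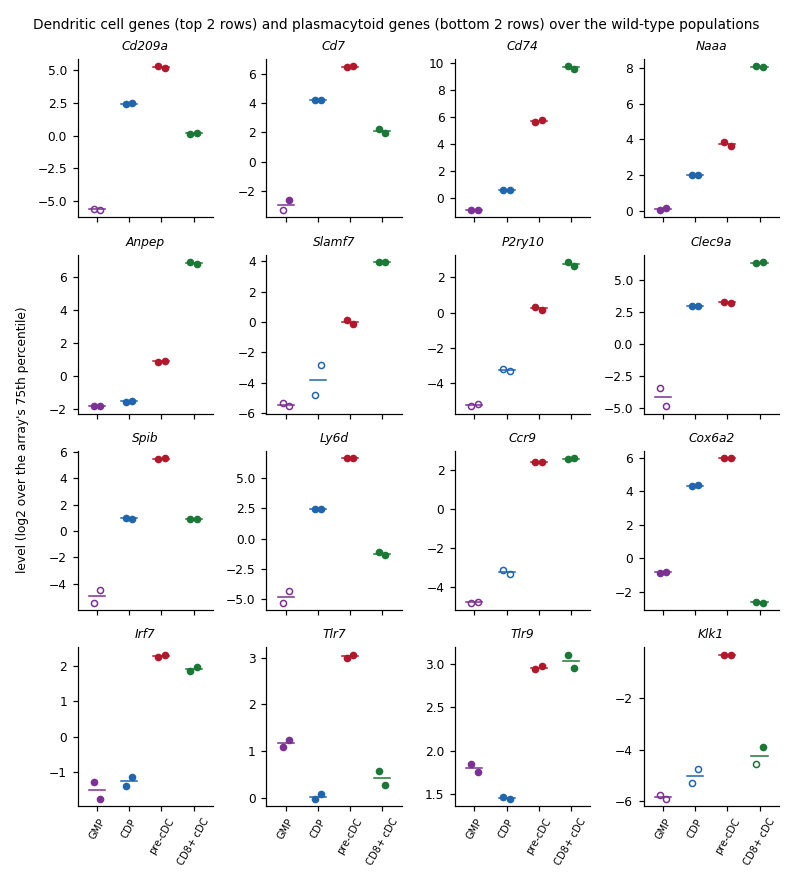
Level of 16 genes on each wild-type array of GMP, CDP, pre-cDC and CD8+ cDC (left to right), as log2 over the array's 75th percentile, with a separate y axis for each gene. Filled points are well above background and bars are means of 2 arrays; Spib, Ly6d, Cox6a2, Tlr7 and Cd209a peak in pre-cDC, while Cd74, Anpep, Slamf7 and P2ry10 are higher still in CD8+ cDC.

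Genes shared by dendritic cells showed rises and no falls that passed under every scaling. Of 19 tested on the dendritic cell core list, 11 rose and 5 fell, and 9 rose and none fell under all 6 scalings (median 1.08, from 0.56 to 1.59 over the scalings). Of the 15 above background on all 4 arrays, 8 were higher and 5 lower (median 0.62). Slamf7, a receptor of the signalling lymphocyte family, and P2ry10, a lysophospholipid receptor, were not well above background in CDP and were at least 7.46-fold and 10.5-fold higher in pre-cDC. Anpep, the aminopeptidase CD13, read 0.86 and 0.94 in pre-cDC, against -1.55 and -1.5 in CDP (change 2.43 ± 0.10), and Nectin1, an adhesion molecule, changed by 3.01 ± 0.18. These genes were higher again in CD8+ cDC, with means of 3.93 for Slamf7, 2.76 for P2ry10, 6.83 for Anpep and 4.01 for Nectin1. Ccr7, the receptor that guides mature dendritic cells to lymph nodes, was lower in pre-cDC, at 0.84 and 0.76 in pre-cDC, against 1.81 and 2.03 in CDP (change -1.12 ± 0.27), though not under all scalings. Dpp4 did not pass the test (difference -0.35) except as lower with array medians.

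Little of the cDC1 list could be read at this stage. Of its 19 genes with a probe, 11 were not well above background on both arrays of either group, and the 8 tested gave 3 rises and 3 falls, of which 2 rises and 1 fall passed under all scalings. With 1 array left out, the main setting gave 3 to 5 rises and 3 to 4 falls. The rises were Batf3, above, and Naaa, an acid amidase of cDC1, at 3.85 and 3.64 in pre-cDC, against 2.01 and 2.03 in CDP (change 1.73 ± 0.09). Rab7b, a late endosome GTPase that is at 6.24 in CD8+ cDC, fell (0.86 and 1.20 in pre-cDC, against 2.38 and 2.35 in CDP, change -1.34 ± 0.15). Clec9a, the receptor for dead cells that marks cDC1 and some of their precursors, stood at 3.29 and 3.23 in pre-cDC, against 2.96 and 2.95 in CDP and did not pass the test (difference 0.30, adjusted p = 0.537), although it was called higher in a fit of the 4 arrays alone (adjusted p = 0.0413) and with normexp (0.52, adjusted p = 0.0116).

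The cDC2 list was more mixed. Of 16 genes tested, 8 rose and 6 fell, and 5 rose and 4 fell under all scalings, with a median of 0.28 that turned negative with array medians. Cd209a, a C-type lectin of cDC2 and monocyte-derived cells, read 5.34 and 5.18 in pre-cDC, against 2.43 and 2.47 in CDP (change 2.81 ± 0.22, adjusted p = 1.05e-05), and Cd7 read 6.41 and 6.52 in pre-cDC, against 4.17 and 4.17 in CDP (change 2.30 ± 0.20). Lyz2, which encodes lysozyme, changed by 2.40 ± 0.13 and Cd4 by 1.49 ± 0.11, and Tbx21, which encodes T-bet, was at least 3.96-fold higher. The falls besides the gate gene Csf1r were in Mgl2 (change -1.25 ± 0.07), Il1r1, which was not well above background in pre-cDC and at least 1.63-fold lower there, and Rbpj, the nuclear effector of Notch (change -1.01 ± 0.07). The mean of the Mgl2 probe lay between 6.10 and 7.35 in every wild-type group. Ltb, a lymphotoxin chain gene, passed in the main setting and not under all scalings (change 0.77 ± 0.12). Esam, Clec4a4, Dtx1 and Clec12a were not above background on both arrays of either group.

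Class II genes were higher, and class I genes lay near the median of all genes. On the class II list, 11 of 14 rose and 2 fell in the main setting, and 6 rose and none fell under all scalings, 3 of them the gate genes H2-Aa, H2-Ab1 and H2-Eb1. With any 1 array left out, 7 to 8 were higher in place of the 11. Cd74, the invariant chain that escorts class II molecules, read 5.6 and 5.75 in pre-cDC, against 0.60 and 0.57 in CDP, a 34.1-fold difference (change 5.09 ± 0.13, adjusted p = 4.1e-07). It averaged -0.92 in GMP and 9.64 in CD8+ cDC, so pre-cDC lay between CDP and the mature cell. Ciita, the transactivator of class II genes, and H2-DMb2, a chain of the peptide exchange factor, were above background on 1 CDP array each and passed only under some scalings (changes 1.26 ± 0.46 and 1.18 ± 0.43). Leaving out any 1 array ended the call of Ciita (adjusted p from 0.0658 to 0.137), and leaving out any but CDP replicate 2 ended that of H2-DMb2 (adjusted p from 0.0551 to 0.179). On the class I list, 12 of 17 were lower and 3 higher, and 7 fell and none rose under all scalings, beside 58% lower and 36.2% fallen under all scalings among all genes. The median was -0.47, which is that of all genes tested to within 0.13 on every scale and changed sign with them. The immunoproteasome subunit genes Psmb8, Psmb9 and Psmb10 changed by -1.05 ± 0.09, -0.95 ± 0.07 and -0.98 ± 0.08, the trimming peptidase Erap1 by -1.46 ± 0.27 and the chaperone Canx by -1.20 ± 0.08. The peptide transporter gene Tap2 was lower under some scalings (change -1.10 ± 0.21), and 2 genes did not pass the test.

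Genes of stem and progenitor cells were lower. Of 21 tested, 15 fell and 1 rose, and 14 fell and none rose under all scalings (median -1.35, from -1.87 to -0.84). Cd34, a sialomucin of progenitors, read 3.22 and 3.19 in pre-cDC, against 6.52 and 6.52 in CDP (change -3.32 ± 0.14, adjusted p = 8.35e-07). Egfl7 read 2.65 and 2.64 in pre-cDC, against 6.03 and 6.14 in CDP (change -3.45 ± 0.07), and Muc13, an epithelial type mucin of progenitors, read -0.63 and -0.45 in pre-cDC, against 3.47 and 3.55 in CDP (change -4.05 ± 0.15). Erg, an ETS factor needed for stem cells, was not well above background in pre-cDC and at least 5.99-fold lower there. Tal1, a factor of stem and red cell development, changed by -3.11 ± 0.24. The exception was Hlf, at least 3.96-fold higher in pre-cDC though not under every scaling, and Gata2 did not pass (difference 0.15) except as higher with detected probes.

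The primary granule list, which also holds the factor genes Gfi1 and Cebpe, moved in both directions. Primary granule genes, which myeloid progenitors express, gave 6 falls and 3 rises of 11 in the main setting. Of these, 6 falls and 2 rises passed under all scalings. Among all genes, 58% were lower and 24.7% higher, and 36.2% and 10.8% under all scalings. Mpo, myeloperoxidase, read 6.27 and 6.26 in pre-cDC, against 9.65 and 9.68 in CDP, a 10.5-fold difference (change -3.40 ± 0.09, adjusted p = 4.39e-07). Ctsg, cathepsin G, read 4.82 and 4.77 in pre-cDC, against 8.23 and 8.26 in CDP (change -3.45 ± 0.10), Prtn3, proteinase 3, changed by -2.47 ± 0.10, and Gfi1, a repressor needed for neutrophil development, by -2.09 ± 0.20. Prss57 and Hp also fell (changes -2.15 ± 0.10 and -1.45 ± 0.10), and 2 genes did not pass the test. Elane and Cebpe, named after their values were seen because they are the 2 rises, changed by 0.94 ± 0.06 and 1.37 ± 0.16.

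Secondary granule and mature neutrophil genes were higher. Of 11 tested, 10 rose and 1 fell, and 9 rose and none fell under all scalings, with a median of 5.01 (from 1.74 with normexp to 5.51 over the scalings), or 3.63 with genes not well above background in CDP at their bound. Only 4 of the 11 were above background on all 4 arrays, and the median of those 4 was 3.26. S100a9, a subunit of calprotectin, read 5.01 and 5.07 in pre-cDC, against -1.53 and -1.42 in CDP, a 91.8-fold difference (change 6.52 ± 0.08, adjusted p = 2.25e-08). Its partner S100a8 was at least 81.7-fold higher, and Ltf, Ngp, Retnlg and Chil3, none of them well above background in CDP, at least 12.9, 10.5, 12.4 and 21.5-fold higher. Lcn2, lipocalin 2, read 1.42 and 1.5 in pre-cDC, against -2.15 and -2.19 in CDP (change 3.62 ± 0.08). These levels were far below those of neutrophils, where S100a9 averaged 10.72 and Lcn2 10.93; CD8+ cDC read 3.78 for S100a9. The 5 neutrophil markers measured (S100a8, S100a9, Ltf, Ngp and Camp) were all well above background in pre-cDC and summed to 45.8 to 47.8 times the array's 75th percentile there, against 0.576 to 0.579 in CDP, where 4 of the 5 were not above background, and 7492 to 8114 in Neu. How much neutrophil RNA contributed to the rise was not tested.

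Markers of other cells moved unevenly. Of 11 genes tested on the basophil, mast cell and eosinophil list, 6 were higher and 2 lower, 5 and 1 under all scalings (median 0.53). The 5 basophil and eosinophil markers were all above background in pre-cDC and 4 in CDP, and 4 rose, with sums of 34.1 to 38.9 in pre-cDC, 6.45 to 6.99 in CDP and 124 to 126 in GMP. The basophil proteases Prss34 and Mcpt8 changed by 3.11 ± 0.12 and 2.69 ± 0.11 and the mast cell protease Cpa3 by 3.1 ± 0.17, whereas the eosinophil granule gene Epx did not pass (difference -0.01). Of 14 erythroid and megakaryocyte genes tested, 5 were higher and 6 lower, 2 and 4 under all scalings. Hbb-bt, a beta globin gene, was at least 26.7-fold higher in pre-cDC and Hba-a1 changed by 1.88 ± 0.07, while the red cell marker Alas2 was not above background in either group. The platelet genes Ppbp, Gp9 and Pf4 changed by -3.34 ± 0.11, -2.26 ± 0.27 and -2.21 ± 0.12.

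Of 25 monocyte and macrophage genes tested, 13 were higher and 7 lower, 8 and 3 under all scalings, with a median of 0.24 that turned negative with array medians. Treml4, a receptor of patrolling monocytes and some dendritic cells, was at least 3.59-fold higher, and Klf2, a factor of circulating cells, changed by 1.67 ± 0.17. Of the 4 monocyte markers measured, F13a1 fell (change -2.64 ± 0.26), Fn1 rose (change 1.37 ± 0.17), and Ccr2 did not pass in the main setting (difference 0.43), although it was called higher under 4 of the 5 other scalings. The summed level of the 4 was 78.5 to 83.3 in pre-cDC, against 255 to 263 in CDP. The macrophage markers Mertk, C1qa and C1qc and the B cell markers Ms4a1 and Pax5 were not above background in either group. Cd79a was above it on 1 CDP array alone. The macrophage markers Adgre1 and C1qb were above background on both arrays of each group. Adgre1 was lower in pre-cDC in the main setting (change -0.23 ± 0.07), and C1qb did not pass (difference 0.01). Of 8 B lymphoid genes tested, 4 were higher and 3 lower, 3 and 3 under all scalings (median 0.53). Of the 5 above background on all 4 arrays, 1 was higher and 3 lower (median -1.06). The B lineage kinase gene Blk was at least 5.37-fold higher, whereas the surrogate light chain genes Vpreb1 and Vpreb3 changed by -1.94 ± 0.23 and -2.31 ± 0.23. The T and NK markers Ncr1, Klrb1c and Eomes were not above background, and Cd3g was above it on 1 pre-cDC array. Of 9 T and NK genes tested, 4 rose and 1 was lower, 4 and none under all scalings (median 0.65). Among all genes, 24.7% were higher and 58% lower, and 10.8% and 36.2% under all scalings. Of the 7 T and NK genes above background on all 4 arrays, 2 were higher and 1 lower (median 0.25). The lower gene was the T cell marker Cd3e, which was above background on all 4 arrays. Cd3e read 0.77 and 1.25 in pre-cDC, against 1.78 and 1.68 in CDP (change -0.72 ± 0.17, adjusted p = 0.0056). Lck, Thy1 and Gzma, which lymphocytes express, rose (changes 2.11 ± 0.17 and 1.67 ± 0.20, and at least 4.57-fold for Gzma). The part of such cells in any result was not tested.

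Genes of DNA replication were lower. All 28 on the list were tested, 23 fell and none rose, and 19 fell under all scalings. The median was -1.28 (from -1.80 to -0.73 over the scalings), against -0.49 for all genes and -0.75 for the brightest of the 4 groups of genes. Mcm6, a subunit of the replicative helicase, read 6.40 and 6.44 in pre-cDC, against 8.23 and 8.31 in CDP (change -1.85 ± 0.08, adjusted p = 8.35e-07). Cdt1, which loads that helicase at origins, read 4.44 and 4.43 in pre-cDC, against 6.20 and 6.20 in CDP (change -1.77 ± 0.06). Gins1, Orc6, Rfc4 and Mcm4, of the helicase complex, the origin complex, the clamp loader and the helicase core, changed by -2.12 ± 0.10, -1.96 ± 0.06, -1.73 ± 0.07 and -1.68 ± 0.08. The other 5 genes did not pass the test.

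Promoters of these genes often carry a site for E2F factors, which drive replication genes at the start of S phase. The genes E2f1 and E2f3 fell (changes -1.22 ± 0.06 and -2.36 ± 0.09). Whether E2F factors had a part in the lower level of replication genes was not tested. The letters TTTCCCGC or TTTGGCGC, on either strand, were found in 9 of the 23 replication genes with a promoter in the RefSeq table of GRCm38.p6 (39.1%), against 486 of 27025 genes (1.8%), and in none of 23 mitosis genes. Of the 9 genes, 7 were lower in the main setting, as were 11 of the 14 without the letters. The promoters of Mcm6 and Cdt1, from 250 bases before to 50 after the start, are shown 5′ to 3′ on the strand of the gene with the matches in capitals; they lie at chr1:128359656-128359955 (minus strand) and chr8:122567765-122568064 (plus strand).
Mcm6: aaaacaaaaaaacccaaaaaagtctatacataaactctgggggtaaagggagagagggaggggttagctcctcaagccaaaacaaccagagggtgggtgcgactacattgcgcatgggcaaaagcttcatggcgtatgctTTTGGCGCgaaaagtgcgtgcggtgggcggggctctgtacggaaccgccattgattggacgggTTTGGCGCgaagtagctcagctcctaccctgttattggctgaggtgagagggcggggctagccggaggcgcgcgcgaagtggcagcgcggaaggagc
Cdt1: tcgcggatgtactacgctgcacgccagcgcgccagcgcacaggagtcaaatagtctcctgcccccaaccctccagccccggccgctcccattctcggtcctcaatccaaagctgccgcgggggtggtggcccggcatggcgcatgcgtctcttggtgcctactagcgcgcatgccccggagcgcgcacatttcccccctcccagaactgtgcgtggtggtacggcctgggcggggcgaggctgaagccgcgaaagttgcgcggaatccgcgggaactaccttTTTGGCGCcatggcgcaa
Mcm6 holds the same 8 letters at 2 places before its start, and Cdt1 holds them once, just after its start.

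Mitosis genes lay closer to the median of all genes. Of 28, 18 were lower and 2 higher, and 9 fell and 2 rose under all scalings (all genes: 58% and 24.7%, and 36.2% and 10.8%). Their median of -0.46 was above that of all genes on every scale and was positive under 3 of the 5 other scalings (quantile normalization, detected probes and the authors' deposited table). Ccnb1 and Ccnb2, the B-type cyclins of mitotic entry, changed by -1.28 ± 0.07 and -1.30 ± 0.07, and Mad2l1, of the spindle checkpoint, by -1.34 ± 0.08. Aurkb, a chromosomal passenger kinase not above background in CDP, was at least 3.37-fold higher. Of 21 G1 cyclin and cell cycle inhibitor genes tested, 13 were lower and 6 higher, 10 and 1 under all scalings. Their median was -0.69, and its difference from that of all genes ran from -0.20 to 0.13 over the scalings. Ccnd2, Cdk4 and Cdk6 fell (changes -2.00 ± 0.09, -1.62 ± 0.07 and -1.57 ± 0.18), while Btg2, an antiproliferative gene, rose (change 1.64 ± 0.09).

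Growth genes were lower too. On the MYC and ribosome biogenesis list, 18 of 21 were lower and 1 higher, and 16 fell and 1 rose under all scalings (median -1.44, from -1.95 to -0.93). Myc read 0.59 and 0.20 in pre-cDC, against 2.33 and 2.45 in CDP (adjusted p = 5.84e-06). The nucleolar genes Ppan, Gnl3, Wdr12 and Nop56 changed by -2.29 ± 0.10, -2.10 ± 0.29, -2.08 ± 0.15 and -1.98 ± 0.08, and the rise was Mycl, given above. In glycolysis, 14 of 22 genes were lower and 5 higher (all genes: 58% and 24.7%). Under all scalings 9 of them fell and 1 rose (all genes: 36.2% and 10.8%). That list's median of -0.45 matched the median of all genes to within 0.05 on every scale. Hk3 and Tpi1, hexokinase 3 and triosephosphate isomerase, changed by -2.46 ± 0.09 and -2.00 ± 0.07, and the phosphofructokinase gene Pfkp rose (change 1.14 ± 0.11). Among 14 reference genes, 11 fell and 1 rose in the main setting and 5 fell under all scalings, with the greatest change in Hprt (change -1.83 ± 0.06).

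**Figure D4:**
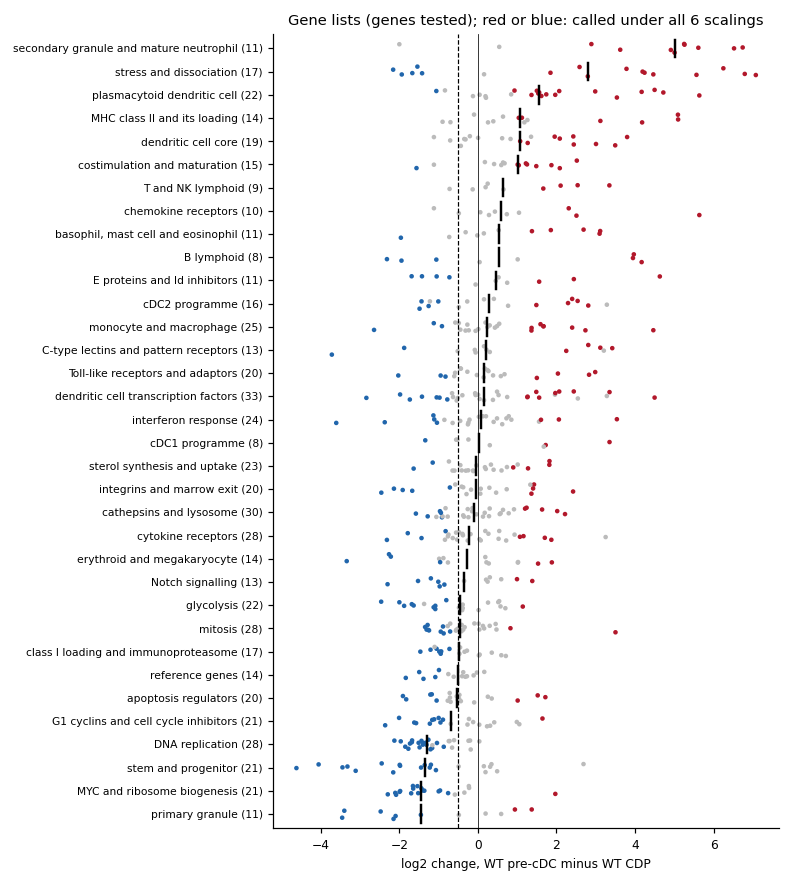
Change of each tested member of 34 gene lists, WT pre-cDC minus WT CDP on the log2 scale, with the number tested in brackets. Black ticks are list medians, the dashed line is the median of all genes (-0.49), and coloured points passed under all 6 scalings (red higher, blue lower in pre-cDC); the neutrophil, stress and plasmacytoid lists lie farthest right and the primary granule, MYC, progenitor and replication lists farthest left.

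Interferon response genes did not move together. Of 24 tested, 10 were higher and 10 lower, and 3 rose and 5 fell under all scalings, with a median of 0.08 that changed sign with array medians. Besides Irf7, Oas2 and Oasl2, of the family that senses double-stranded RNA, rose (changes 2.06 ± 0.08 and 1.61 ± 0.09). Gbp3, a guanylate binding protein, read 0.86 and 0.83 in pre-cDC, against 3.25 and 3.17 in CDP (change -2.37 ± 0.07, adjusted p = 4.94e-07), and Cxcl10, a chemokine, was not well above background in pre-cDC and at least 4.84-fold lower there (adjusted p = 0.00549, or 0.0651 in a fit of the 4 arrays alone). The interferon stimulated response element, to which interferon regulatory factors bind, was searched as a pair of GAAA blocks with any 2 bases between them, on either strand, and was found in 12 of the 20 list members with a promoter (60%), against 1079 of 27025 genes (3.99%). Of these 12, 7 fell and 2 rose in the main setting, and of the 8 without the letters 3 fell and 5 rose. On the plasmacytoid list the letters stood in 1 of 16 promoters, and none of the 12 genes with a promoter that were higher in the main setting had them. To show the element in genes of opposite direction, the promoters of Gbp3 (chr3:142559794-142560093, plus strand), which fell, and Oas3 (chr5:120777610-120777909, minus strand) are given 5′ to 3′, GRCm38.p6, with the matches in capitals; Oas3 was not well above background in CDP and at least 2.94-fold higher in pre-cDC, though not under all scalings.
Gbp3: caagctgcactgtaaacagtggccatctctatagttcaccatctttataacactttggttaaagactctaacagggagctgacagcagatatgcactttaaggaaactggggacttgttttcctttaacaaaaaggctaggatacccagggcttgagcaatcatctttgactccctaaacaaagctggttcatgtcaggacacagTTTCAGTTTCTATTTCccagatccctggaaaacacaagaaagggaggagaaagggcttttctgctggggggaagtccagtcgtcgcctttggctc
Oas3: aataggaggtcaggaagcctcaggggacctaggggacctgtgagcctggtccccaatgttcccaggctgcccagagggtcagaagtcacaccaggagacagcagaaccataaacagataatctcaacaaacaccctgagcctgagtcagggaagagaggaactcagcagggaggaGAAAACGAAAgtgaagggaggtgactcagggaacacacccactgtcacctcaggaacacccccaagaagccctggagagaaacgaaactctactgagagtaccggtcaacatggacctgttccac
In Gbp3 there are 2 overlapping matches, which run into each other.

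Receptors for microbial nucleic acids and for chemokines held several of the rises. Of 20 Toll-like receptor and adaptor genes tested, 8 rose and 5 fell, and 4 rose and 3 fell under all scalings. The rises were Tlr7 and Tlr9, above, Tlr13, which senses bacterial ribosomal RNA (0.92 and 0.82 in pre-cDC, against -1.89 and -2.03 in CDP, change 2.83 ± 0.08), and Cd180, a relative of TLR4 (change 2.04 ± 0.26). Ly96, which encodes the TLR4 partner MD-2, fell (change -2.02 ± 0.09). Of 21 chemokine receptor genes, 10 were tested. In the main setting 4 were higher and 2 lower (median 0.59), and 3 rose and none fell under all scalings. Only 5 were above background on all 4 arrays, of which 1 was higher and 2 lower (median 0.06). Cxcr3, the receptor for interferon-induced chemokines, read 0.92 and 0.99 in pre-cDC, against -1.85 and -0.87 in CDP (change 2.31 ± 0.29), and Ccr9 is given above. Cxcr4, which holds cells in the marrow, did not pass (difference 0.06), although it was called lower with array medians (-0.45, adjusted p = 0.0152) and higher with quantile normalization (0.48, adjusted p = 0.000221), with detected probes (0.57, adjusted p = 0.000131) and in the authors' deposited table (0.51, adjusted p = 0.000119). The untested receptor genes on that list (Cxcr1, Cxcr2, Cxcr5, Ccr1, Ccr3, Ccr4, Ccr8, Ccr10, Ackr3, Ackr4 and Xcr1) were not well above background on both arrays of either group.

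Adhesion and cytokine receptor genes moved in both directions. Of 20 integrin and marrow exit genes tested, 8 were higher and 10 lower (all genes: 24.7% and 58%). Under all scalings 4 were higher and 5 lower (all genes: 10.8% and 36.2%). Itgb2, the beta chain shared by CD11a, CD11b and CD11c, read 4.70 and 4.75 in pre-cDC, against 2.37 and 2.23 in CDP (change 2.42 ± 0.09, adjusted p = 6.56e-07), and Icam1 changed by 1.43 ± 0.15. Cd81, Itgb5, S1pr3 and Itga6 fell (changes -2.46 ± 0.07, -2.14 ± 0.10, -1.91 ± 0.09 and -1.67 ± 0.09). Of 28 cytokine receptor genes, 10 were higher and 14 lower, 4 and 4 under all scalings. Il15ra and Il2rg, which encode chains of the interleukin 15 receptor, rose (changes 1.87 ± 0.09 and 1.70 ± 0.08), the first of them not with the mean of its probes (0.49, adjusted p = 0.27). In turn, Tnfrsf1b and Il4ra fell (changes -2.31 ± 0.19 and -1.78 ± 0.07), although another probe of Il4ra moved by 1.87 and the mean of its probes by 0.04, which did not pass. Il13ra1 was at least 3.03-fold higher, not under all scalings. Of 15 costimulation and maturation genes tested, 11 rose and 2 fell, and 8 rose and 1 fell under all scalings (2 to 4 falls with 1 array left out). Cd40, the receptor for T cell help, read -0.12 and 0.03 in pre-cDC, against -2.07 and -1.77 in CDP (change 1.87 ± 0.57), but it did not pass without pre-cDC replicate 2 (adjusted p = 0.0647) or without CDP replicate 1 (adjusted p = 0.0724). The NF-kappa B genes Traf1 and Nfkb1 changed by 2.09 ± 0.25 and 1.25 ± 0.11. Cd274, which encodes PD-L1, was at least 1.29-fold lower. Of 13 C-type lectin and pattern receptor genes tested, 5 were higher and 3 lower, 4 and 2 under all scalings. Clec4a1 and Cd209d rose (changes 3.42 ± 0.22 and 3.12 ± 0.08) and Clec1b fell (change -3.72 ± 0.25).

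Notch signalling, which supports cDC2 and some plasmacytoid cells in the periphery, gave 4 higher and 7 lower of 13 genes tested, 2 and 6 under all scalings (2 to 6 higher with 1 array left out). Among all genes, 24.7% were higher and 58% lower, and 10.8% and 36.2% under all scalings. Besides Rbpj, the falls named were in Dtx4, an ubiquitin ligase of the pathway, and in Adam10 and Adam17, which cleave the receptors (changes -2.30 ± 0.07, -1.52 ± 0.07 and -1.20 ± 0.21). The receptor genes Notch1 and Notch2 did not pass in the main setting (differences 0.31 and 0.25). However, Notch2 was called higher under 4 of the 5 other scalings, with the mean of its probes (0.51, adjusted p = 0.00133) and without pre-cDC replicate 2 (0.35, adjusted p = 0.0292). Notch1 was called higher with detected probes (0.81, adjusted p = 0.00123), with the mean of its probes (1.32, adjusted p = 0.000279) and without CDP replicate 2 (0.52, adjusted p = 0.00972). In contrast, Lfng, which modifies the receptors, and Dtx3 rose (changes 1.0 ± 0.09 and 1.39 ± 0.10).

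Of 30 lysosomal and cathepsin genes tested, 12 were higher and 12 lower, 5 and 5 under all scalings, with a median of -0.09 that was positive under 4 of the 5 other scalings. Ctsw and Ctsl, cathepsins W and L, Npc1, which exports cholesterol from the lysosome, and Tfeb, a factor of lysosomal genes, rose (changes 2.22 ± 0.13, 1.24 ± 0.07, 2.02 ± 0.17 and 1.64 ± 0.13), and Lamp2 fell (change -1.28 ± 0.08). Of 23 sterol genes, 9 were higher and 9 lower, 4 and 2 under all scalings, among them the synthesis genes Lss and Dhcr7 and the regulator Srebf2 (changes 1.82 ± 0.45, 1.82 ± 0.08 and 1.28 ± 0.12) against Ebp and the exporter Abca1 (changes -1.63 ± 0.07 and -1.15 ± 0.20). Of 20 apoptosis regulators, 5 were higher and 14 lower, 3 and 5 under all scalings (all genes: 24.7% and 58%, and 10.8% and 36.2%). Their median of -0.52 differed from that of all genes by -0.07 to -0.02 over the scalings. Pmaip1 and Bmf rose (changes 1.72 ± 0.13 and 1.52 ± 0.21), and Xiap and Bad fell (changes -1.21 ± 0.07 and -1.17 ± 0.08).

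Immediate early genes, which cells switch on within minutes of a stimulus, were among the largest rises. Of 17 genes tested on the stress and dissociation list, 11 rose and 5 fell, all 16 of them under all scalings, with a median of 2.80. Of the 13 above background on all 4 arrays, 7 were higher and 5 lower (median 1.85). Fos read 4.36 and 4.28 in pre-cDC, against -1.20 and -1.29 in CDP, a 47.3-fold difference (change 5.56 ± 0.06, adjusted p = 2.25e-08). Nr4a1 read 5.30 and 5.22 in pre-cDC, against 0.81 and 0.78 in CDP (change 4.47 ± 0.08) and Dusp1, a phosphatase of the same response, 2.14 and 1.97 in pre-cDC, against -2.29 and -2.08 in CDP (change 4.24 ± 0.09). Zfp36, Atf3 and Fosb, not well above background in CDP, were at least 56, 44.2 and 75.7-fold higher. The genes that fell are mainly heat shock genes, named here after their values were seen: Hsp90aa1, Hspa1a, Hsph1, Dnajb1 and the AP-1 gene Fosl2 changed by -2.16 ± 0.07, -1.94 ± 0.35, -1.67 ± 0.27, -1.54 ± 0.07 and -1.42 ± 0.10. CD8+ cDC, from spleen, also read high for Fos and Nr4a1, at 4.50 and 6.05, whereas GMP read -2.59 and -0.58. The time from marrow to lysis is not in the labels, and its part in this result was not tested.

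**Figure D5:**
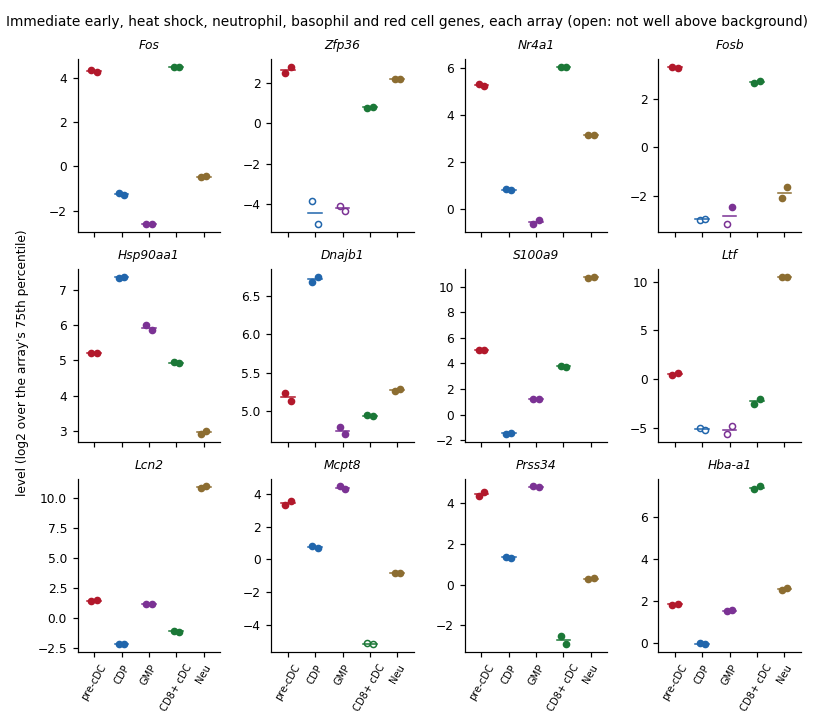
Level of immediate early (Fos, Zfp36, Nr4a1, Fosb), heat shock (Hsp90aa1, Dnajb1), neutrophil (S100a9, Ltf, Lcn2), basophil (Mcpt8, Prss34) and globin (Hba-a1) genes on each array of WT pre-cDC, CDP, GMP, CD8+ cDC and Neu, as log2 over the array's 75th percentile, with a separate y axis for each gene. Open points are not well above background; pre-cDC lie above CDP for all but the heat shock genes, and far below Neu for the neutrophil genes.

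Of the remaining genes named by size alone, several lie outside the lists. Syt10, a synaptotagmin, was at least 108-fold higher in pre-cDC (3.39 and 3.90, not well above background in CDP), and Ccl4, a chemokine gene, at least 54.5-fold. Xkrx read 1.73 and 1.70 in pre-cDC, against -2.92 and -2.86 in CDP (change 4.60 ± 0.31), Ptprf, a receptor phosphatase, 3.34 and 3.24 in pre-cDC, against -1.26 and -0.89 in CDP (change 4.36 ± 0.29), and the Src family kinase gene Fgr 1.99 and 2.10 in pre-cDC, against -2.55 and -2.21 in CDP (change 4.42 ± 0.63). Xkrx and Ptprf averaged -2.52 and -4.07 in CD8+ cDC and -3.90 and -3.06 in GMP, so among these wild-type populations they were highest in pre-cDC. Junb and Ier5, immediate early genes, changed by 3.78 ± 0.14 and 3.77 ± 0.23, and Tagln, an actin binding protein gene, by 3.59 ± 0.22. Tpgs2 had the same rank by its brightest probe (change 3.56 ± 0.07), but its probes ranged from 0.35 to 3.56.

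Other large falls were in genes named by size alone. Mif, macrophage migration inhibitory factor, read 5.08 and 5.12 in pre-cDC, against 8.53 and 8.56 in CDP (change -3.44 ± 0.06, adjusted p = 1.57e-07). Ifitm1 read 0.64 and 0.84 in pre-cDC, against 4.59 and 4.58 in CDP (change -3.84 ± 0.09). The tetraspanin gene Tspan4 read -0.39 and -0.50 in pre-cDC, against 3.04 and 3.15 in CDP (change -3.54 ± 0.14). By its brightest probe Plppr3 read 2.87 and 2.92 in pre-cDC, against 6.33 and 6.30 in CDP (change -3.42 ± 0.09). The other probe of Plppr3 changed by only -0.11. Rapgef3, an exchange factor for RAP1 activated by cyclic AMP, changed by -3.52 ± 0.19, Afap1l1 by -3.85 ± 0.57, Tfpi, an inhibitor of coagulation, by -3.43 ± 0.24 and Otos by -3.33 ± 0.14. Krt18 and Angptl4 had wider errors (changes -3.77 ± 0.63 and -3.54 ± 0.94). Among genes not well above background in pre-cDC, Tmem178, Gsdme, Tctex1d1 and Ttll9 were at least 14.7, 13, 12.4 and 11.4-fold lower, and Gm5088, Zfp184, Cmtm8 and Tmem140 at least 9.73, 8.26, 7.88 and 7.8-fold lower.

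Of the probes that the files name by a genomic interval and by no gene, 3807 were tested by the same rule, and 2630 of them (69.1%) passed at an adjusted p over these probes, 1767 higher (46.4%) and 863 lower (22.7%) in pre-cDC. Here most calls were thus higher in pre-cDC, unlike for the genes tested as a whole. In the dimmest of the 4 groups of genes by mean level, 38.4% were called higher and 34.7% lower. In the brightest group the shares were 14.3% and 76.2%. The interval probes were not matched to the genes by level. Whether their direction depends on brightness or on the scaling was not tested.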

How the data were processed

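Total RNA was labelled with Cy3 from low input, per the labels' protocols, and hybridised to one-colour Agilent mouse arrays. Spot intensities were made by the authors with Agilent Feature Extraction 10.7.3.1, per the file headers. That software subtracted background from the processed signal and detrended it over each array. Deposited scanner flags (other values) mark spots that are well above background or outliers. The authors' deposited value table holds intensities on a linear scale whose columns have identical sorted values; how it was normalized is not stated in the labels or headers, and the direction of its values was taken from a Spearman correlation of at least 0.992 with the processed signal. All columns of per-sample values used were matched to a sample, and the arrays of CD4+ cDC were left out because their design is smaller.

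Control spots and outlier spots were left out, spots of a probe averaged, and log2 of the processed signal taken minus the array's 75th percentile. A gene was represented by its probe with the highest mean. Of 55681 probes, 26762 carried an accession in the files that matched 1 gene in RefSeq, and these stood for 20284 genes. The other 28919 probes had no gene name by this rule and were not in the gene tests. Genes that passed the background flag in both samples of pre-cDC or of CDP were tested with limma 3.58.1 (R 4.3.3) in a fit of the 12 arrays and 6 groups of the larger design, which share 1 estimate of the spread, and p-values were adjusted by Benjamini and Hochberg over the 11465 genes tested. A gene that was not well above background on either array of a group has only a bound there, given as "at least N-fold": the brighter group's mean against, for each array of the dim group, the higher of the probe's own level and the lowest level among probes well above background. Scripts were tested on simulated data. The labels give each array of a group an experiment number, but do not say whether that number marks a shared batch. Deviations by that number were uncorrelated between pre-cDC and CDP (r = -0.02), which cannot show that no batch was shared. The main fit has no block.

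The gene lists and the members of the comparison were chosen with earlier results of these data known. The genes named are, besides the gate and cell type markers, the 15 largest rises and falls among genes above background on all 4 arrays, the 8 largest bounded changes each way, up to 6 called and 2 uncalled members of each of the 35 lists, and any member of 5 lists (transcription factors, cDC1, cDC2, chemokine receptors, E proteins and Id inhibitors). A few genes that this rule covers are not reported here. The normexp alternative (offset 50) used the median spot signal, since these files were read without a mean signal. Other alternatives were the fit of 4 arrays, quantile normalization, array medians, a percentile over detected probes, the authors' table, other filters, the mean of a gene's probes, a trended robust prior, a replicate block and 1 array left out. Promoters are from RefSeq, assembly GRCm38.p6, and figures were drawn with matplotlib 3.10.9.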

Additional observations from a re-analysis of the deposited data

Results flagged for a closer look

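The arrays also carry 16160 probes that the files name only by a genomic interval (mm9) and a strand, with no gene, and these were in none of the gene comparisons above. Of these, 506 were well above background on both pre-cDC arrays and on neither CDP array, and 282 showed the reverse. The dim side of such a probe is only a bound. The largest rise was in the probe for chrX:50400250-50410825, with levels of 2.69 and 3.32 in pre-cDC, against -1.54 and -2.22 in CDP (change 4.88 ± 0.35). The probe for chr5:35893909-35899497 followed, with 3.11 and 3.21 in pre-cDC, against -0.96 and -0.76 in CDP. The largest fall was in the probe for chr19:56820850-56837925, with 2.59 and 2.69 in pre-cDC, against 6.05 and 6.05 in CDP (change -3.41 ± 0.17). The transcripts behind these intervals were not analysed here.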

How the results depend on the processing

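Counts moved most with the scaling. Against 9471 genes called, 2827 higher and 6644 lower, scaling to array medians gave 1551 higher, and the percentile over detected probes gave 4540 higher and 4314 lower. Of at least 2-fold changes (1485 higher, 3186 lower), normexp gave 697 higher and 1596 lower, array medians 896 and 5752, detected probes 2398 and 1215, quantile normalization 2031 lower, 1998 lower in the authors' values, and the filter to genes above background on all 4 arrays 956 higher. The rule that a gene pass under all 6 scalings, chosen after seeing the data, left 5387 called, 1235 higher and 4152 lower. With 1 array left out (the lone array is assumed to vary like the other groups), 8971 to 9265 genes were called, 2576 to 2836 higher and 6299 to 6462 lower, 1447 to 1656 higher and 3037 to 3277 lower by at least 2-fold. With a replicate block 9351 were called, and the labels do not say whether the replicate numbers pair the arrays. Of 2438 values for 226 named genes under the other settings, 2379 stayed on their side of the threshold with no call turned. With uncalled values and 1 array left out counted too, 24 values of 14 genes had the opposite sign. A direction called in the main or the other setting turned for Irf8 (-0.36) and Cxcr4 (-0.45) with array medians, Zfp366 with normexp (-0.0050), and Csf1r (0.10), Ikzf1 (0.046) and Il4ra (0.045) with the mean of their probes, which differ among themselves; otherwise the cause was not tested. Probes near background limit folds to bounds.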
